A study of Mus musculus with 116 samples.

Results

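Repair of a single Cas9 break was compared between dividing and G1-arrested wild-type pro-B cells. The members were the 6 libraries whose sample titles name clone A of the wild-type line, the Cas9 break and either the cycling cells (3 libraries) or the G1-arrested set sequenced for that comparison (3 libraries), out of 116 samples in the series. The cells are mouse v-Abl pro-B cells, early B-lineage cells transformed with the v-Abl oncogene. All 6 libraries carry the Emu-Bcl2 transgene, a B-lineage driven Bcl2 gene that supports survival, and all come from 1 clone, so they do not show how clones differ. Both groups received Cas9 and a c-Myc guide RNA by nucleofection. The arrested cells were also treated with STI-571, an Abl kinase inhibitor, at 3 µM for 96 h, and the cycling cells were not, so arrest and the inhibitor cannot be told apart. The labels do not say whether the 3 replicates of a group are separate cultures, so the tests measure the spread between libraries, which may be technical. Cell-cycle status was taken from the labels.

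Double-strand breaks are mended mainly by 2 kinds of end joining. In classical non-homologous end joining the Ku heterodimer holds the ends and ligase IV (Lig4) seals them, usually with little loss of sequence and often with a few bases added; in B-lineage cells the template-independent polymerase TdT is known to add bases rich in G and C. In alternative end joining the ends are first cut back (resection), and short matching stretches (microhomology) then pair, which removes the bases between them. Resection is known to be held back in G1 and to be more active once cells replicate DNA. The question of the comparison is how the products at the break differ between the conditions.

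The break lies on chromosome 15 of mm10, between positions 61987303 and 61987304, inside the annotated Myc gene (gene ID 17869, chr15:61985341-61990361), 1962 bp from the gene's lower-coordinate end; Myc encodes a transcription factor that drives growth. Whether the position is exonic or intronic was not analysed here. A primer reads out of the sequence below position 61987303 (the bait), and the sequence it is joined to is the prey. The uncut site, read from the deposited alignments on the plus strand, is shown first because every product below is a change to it (chr15:61987274-61987333), with the Cas9 recognition motif next to the cut (the PAM) in capitals.
uncut site: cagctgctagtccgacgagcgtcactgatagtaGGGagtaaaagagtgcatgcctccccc
The break falls 3 bp before the GGG, and the base on the bait side of it is an A.

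The next 12 products are shown because they were the most frequent in either condition or differed most between them. Inserted bases (the most frequent insertion of that length over the 6 libraries pooled) or the overlap shared by bait and prey are in capitals. Direct joins have none. Arrested cells gave most of the pooled 2 bp insertions between intact ends, and in cycling replicates 2 and 3 AA was more frequent there than GG. Names give the bases lost from the bait and prey sides, not counting a shared overlap, which is lost once more from the total.
intact ends, 1 bp inserted: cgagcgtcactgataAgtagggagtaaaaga
intact ends, 2 bp inserted: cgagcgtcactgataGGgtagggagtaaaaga
intact ends, 3 bp inserted: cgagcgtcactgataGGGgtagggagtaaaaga
intact ends, 4 bp inserted: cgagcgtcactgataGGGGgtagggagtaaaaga
bait 1 bp lost, 2 bp inserted: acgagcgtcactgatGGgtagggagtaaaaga
bait 1 bp lost, 3 bp inserted: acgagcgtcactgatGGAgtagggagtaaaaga
bait 1 bp lost, direct: acgagcgtcactgatgtagggagtaaaaga
bait 2 bp lost, direct: gacgagcgtcactgagtagggagtaaaaga
prey 1 bp lost, direct: cgagcgtcactgatatagggagtaaaagag
prey 1 bp lost, 2 bp overlap: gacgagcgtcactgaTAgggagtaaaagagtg
bait 2 bp and prey 5 bp lost, 2 bp overlap: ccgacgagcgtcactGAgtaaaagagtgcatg
bait 11 bp and prey 13 bp lost, 3 bp overlap: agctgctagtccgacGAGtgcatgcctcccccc

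The deposited lists have 1 line per read that crosses a junction, from libraries that the authors brought to 310675 raw reads each. The arrested libraries held 15888, 27583 and 28933 junction reads and the cycling libraries 14024, 10909 and 16293. At these depths a share of 50% has a 95% Wilson interval of at most ± 0.938 percentage points in any of the 6, which covers counting error only. Per 100000 raw reads, junction reads were 7768 ± 2309 (SD, n = 3) in arrested and 4423 ± 870.1 (SD, n = 3) in cycling cells, and the groups overlapped (exact permutation test, two-sided, p = 0.2; Benjamini-Hochberg adjusted p over 17 measures = 0.212). Reads that rejoin the site (prey on chromosome 15, same orientation, within 100 kb of the break) are deposited with repeats. There were 71632 reads for 2365 distinct junctions in arrested and 40446 reads for 4972 in cycling cells. Whether repeats are copies of the same event or separate events with the same ends is not known here. Inverted, distant and interchromosomal junctions are deposited almost once each, with 705 reads for 703 distinct interchromosomal junctions in arrested and 552 for 552 in cycling cells. Shares over reads therefore set repeated rejoins against junctions listed once, and values over distinct junctions are given beside them where the result changes.

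The read names place the arrested libraries on 3 sequencing runs and the cycling libraries on 2 others, with no run holding both, so the condition cannot be told apart from the run. With 3 libraries a group the exact test cannot give a p under 0.1 (20 relabellings), so no single measure could pass 0.05. Of the 17 measures, 14 reached that smallest p with no overlap between the groups (each exact permutation p = 0.1, adjusted p = 0.121) and 3 overlapped. Other values below are described by their ranges, with no test.

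Cycling cells gave a smaller share of junctions with inserted bases, a larger share of direct joins and a far larger share of joins at microhomology. Inserted bases were present in 87.7%, 85.5% and 90.6% of junction reads from arrested cells and in 60.4%, 43.2% and 55.8% from cycling cells. Every cycling library lay below every arrested one, and the mean fell by 34.8 percentage points, from 88.0% ± 2.57 to 53.1% ± 8.86 (SD, n = 3 each). Direct joins, with neither overlap nor insertion, made up 10.0%, 11.7% and 7.37% in arrested and 12.9%, 15.6% and 21.4% in cycling cells, with no overlap. Joins at microhomology of 2 bp or more were rare in all arrested libraries, at 0.938%, 1.32% and 0.836%. In cycling cells they were 19.1%, 29.0% and 15.0%, a mean of 21.0% ± 7.21 against 1.03% ± 0.255 (SD, n = 3 each). Over distinct junctions the same order held without overlap, with insertions at 75.9% ± 2.43 against 42.5% ± 2.41 and microhomology at 6.30% ± 0.305 against 26.4% ± 2.54 (arrested against cycling). Cycling replicate 2 stood at the end of the range away from the arrested cells for both.

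**Figure D1:**
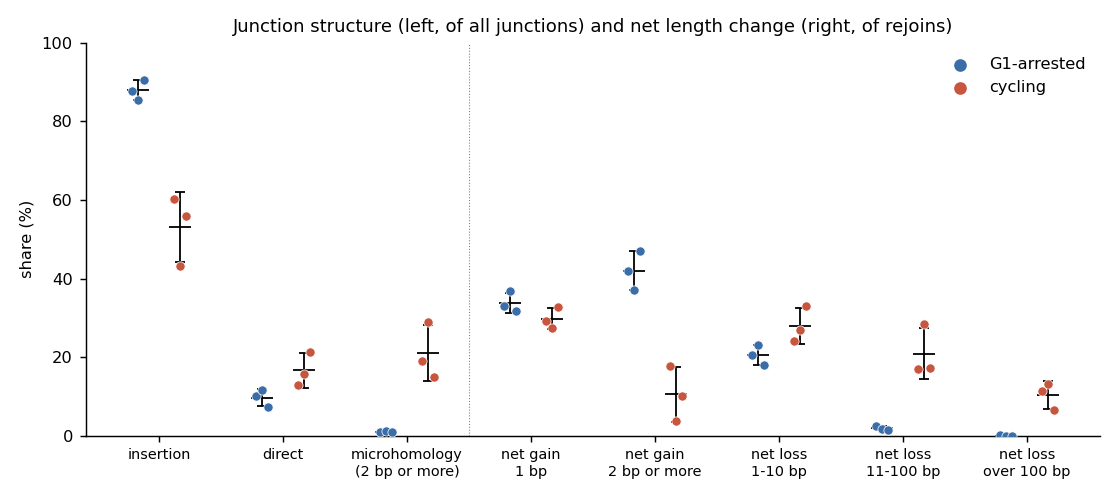
Share of junctions (%, vertical axis) by structure, left of the dotted line over all junction reads, and by net length change, right of it over rejoins; points are libraries (3 G1-arrested, 3 cycling), bars the mean ± SD. Insertions and net gains of 2 bp or more are lower in every cycling library, net gains of 1 bp overlap between the groups, and microhomology and losses of 11 bp or more lie near 0 in arrested cells.

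Net gains of 2 bp or more were lower in cycling cells, while those of 1 bp overlapped between the groups as a share of reads. Among rejoins, a net gain of 1 bp was seen in 33.1%, 36.7% and 31.8% in arrested and 29.1%, 27.5% and 32.7% in cycling cells, and the groups overlapped (mean difference -4.10 percentage points, exact permutation p = 0.2, adjusted p = 0.212). Over distinct junctions gains of 1 bp did not overlap, at 3.87%, 5.33% and 4.05% against 1.28%, 1.32% and 1.54%. A net gain of 2 bp or more, a measure added after the values were seen, was 41.8%, 37.0% and 47.0% in arrested and 17.8%, 3.70% and 10.1% in cycling cells, with no overlap. Cycling replicate 1 kept the most of these gains and replicate 2 the fewest. At an unresected break, with no base lost on either side, single-base insertions were 27.5%, 31.7% and 26.2% of rejoins in arrested and 26.5%, 26.5% and 30.5% in cycling cells. Insertions of 2 bp there were 16.4%, 14.8% and 18.1% against 6.94%, 1.19% and 4.37%. Insertions of 3 bp were 9.24%, 8.03% and 10.5% against 2.99%, 0.346% and 1.70%. Only the single-base class overlapped among these 3.

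**Figure D2:**
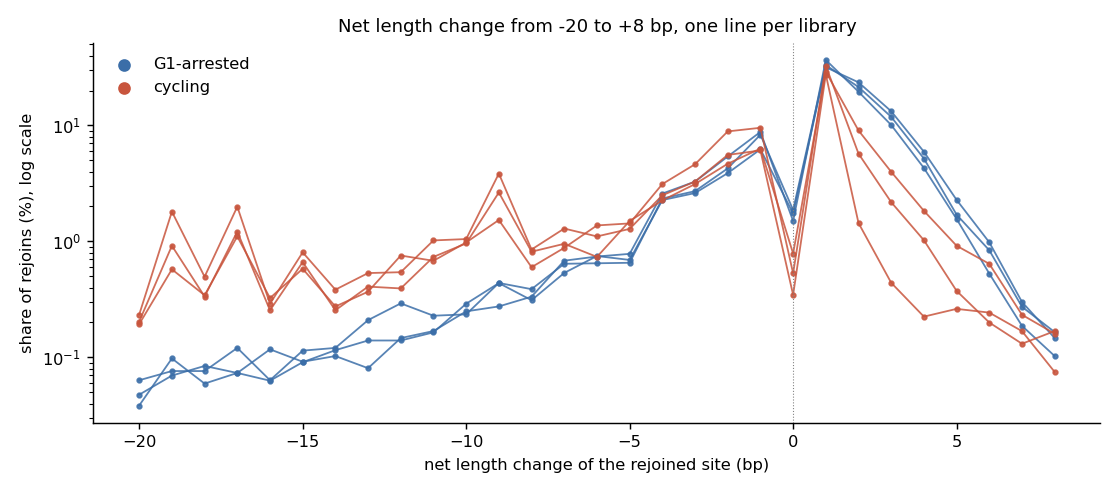
Share of rejoins (%, vertical axis, log scale) at each net length change from -20 to +8 bp (horizontal axis), 1 line per library. The lines of both groups meet at +1 bp and from -1 to -4 bp, the arrested lines are higher from +2 to +5 bp, and the cycling lines are higher from -7 bp down to -20 bp, with peaks at -9, -17 and -19 bp.

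The bases added also differed between the conditions. An A was the base in 72.0%, 75.6% and 72.8% of single-base insertions at the unresected break in arrested cells and in 88.0%, 98.1% and 94.2% in cycling cells. As a share of all rejoins, an inserted A was 19.8%, 24.0% and 19.0% against 23.3%, 25.9% and 28.8%, which overlapped. The other 3 bases together were 7.68%, 7.75% and 7.12% of rejoins in arrested and 3.18%, 0.515% and 1.77% in cycling cells, which did not overlap. G was the next most frequent base in arrested cells, at 18.1%, 16.7% and 17.8% of single-base insertions, and was at 5.53%, 0.813% and 3.29% in cycling cells. Within insertions of 2 to 6 bp, G or C made up 65.3%, 61.3% and 65.1% of the bases in arrested and 60.6%, 46.1% and 57.0% in cycling cells. The pair GG made up 31.7%, 26.5% and 33.6% of 2 bp insertions in arrested cells. It made up 25.7%, 4.72% and 16.3% in cycling cells, where AA stood at 21.8%, 30.7% and 20.9%. The cycling library with the fewest insertions of 2 to 6 bp (replicate 2, 186 reads, against 1685 and 1151 in replicates 1 and 3) was also the one lowest in G, at 23.4% of their bases against 39.3% and 35.8%. G was 43.9%, 42.9% and 45.6% of these bases in arrested cells, above every cycling library, whereas C was 21.4%, 18.4% and 19.5% in arrested and 21.3%, 22.7% and 21.2% in cycling cells, which overlapped.

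Long insertions moved the other way. Insertions of 10 bp or more were 0.560%, 1.08% and 0.781% of all junctions in arrested and 2.31%, 2.37% and 1.24% in cycling cells. In reads they numbered 89, 297 and 226 against 324, 259 and 202, which overlapped.

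**Figure D3:**
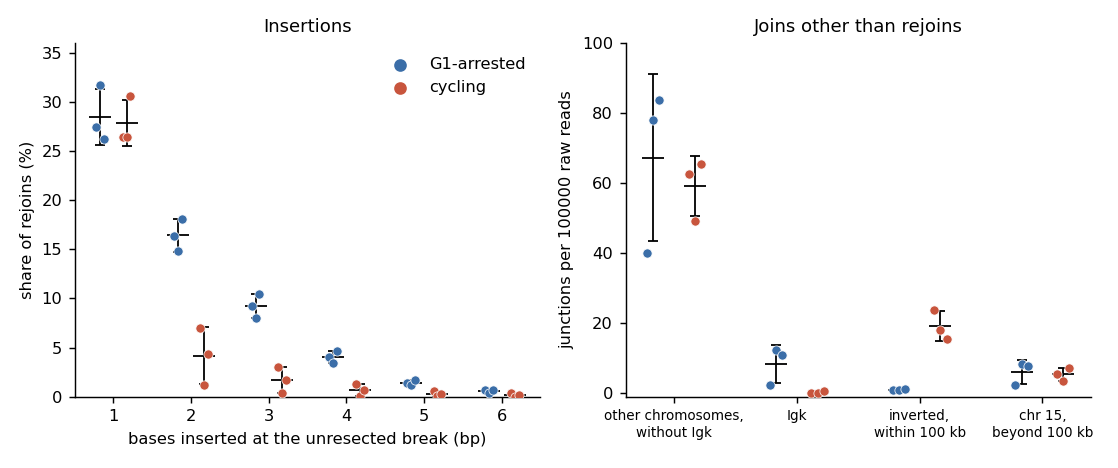
Left, share of rejoins (%) with 1 to 6 bp inserted at the unresected break; right, junctions per 100000 raw reads outside the rejoined site. Points are libraries, bars the mean ± SD (n = 3); the groups overlap at 1 and 6 bp inserted and in joins to other chromosomes without Igk, while Igk joins are higher in arrested and inverted joins higher in cycling cells.

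Cycling cells lost more sequence at the break, and losses of more than 100 bp were rare in arrested cells. Net losses of 1 to 10 bp were 20.6%, 23.1% and 18.0% of rejoins in arrested and 24.0%, 26.9% and 33.0% in cycling cells. In reads they numbered 3250, 6304 and 5150 against 3294, 2871 and 5281, which overlapped. Losses of 11 to 100 bp were 2.49%, 1.64% and 1.51% against 17.0%, 28.4% and 17.1%. Losses of more than 100 bp were 14, 8 and 8 reads in the arrested libraries and 1556, 1416 and 1045 reads in the cycling libraries, or 0.0487% ± 0.0348 against 10.4% ± 3.46 of rejoins (SD, n = 3 each). As shares of rejoins, none of these 3 classes overlapped between the groups. The small losses turned round over distinct junctions, at 39.6% ± 1.40 in arrested against 13.9% ± 1.28 in cycling cells, while losses of 11 to 100 bp were closer, at 32.2% ± 3.39 against 44.2% ± 5.51, and losses over 100 bp stood at 1.04% ± 0.721 against 31.6% ± 5.34. Losses beyond 1000 bp were 0, 0 and 1 reads in arrested and 261, 247 and 130 reads in cycling cells. The largest net loss in a library was 401, 757 and 1006 bp in arrested and 8713, 62249 and 8313 bp in cycling cells.

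Both sides of the break lost bases, and the sides can be measured over unequal ranges. The primer limits the bait, and the largest bait-side loss in these 6 libraries was 85 bp, while the prey side was counted to 100 kb. No base was lost from the bait side in 64.0%, 64.5% and 66.6% of rejoins in arrested and 44.7%, 34.7% and 46.6% in cycling cells. On the prey side the same shares were 90.6%, 91.3% and 91.0% against 59.6%, 45.1% and 66.6%. In both groups the bait side was therefore cut back more often than the prey side. The mean of log10(1 + bases lost) was 0.188 ± 0.00898 against 0.514 ± 0.0902 on the bait side and 0.0552 ± 0.00424 against 0.577 ± 0.181 on the prey side (SD, n = 3 each, no overlap).

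Loss on both sides at once was seen in 5.07%, 4.36% and 4.71% of arrested rejoins and in 34.8%, 48.5% and 24.7% of cycling rejoins. Loss from the bait side alone was 30.9%, 31.1% and 28.7% against 20.5%, 16.8% and 28.7%, and these overlapped. On the prey side the 95th percentile of bases lost was 2, 2 and 2 bp in arrested and 405, 603 and 92.5 bp in cycling cells. Cycling replicate 3 thus had the shortest losses of its group, and replicate 2 the longest.

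**Figure D4:**
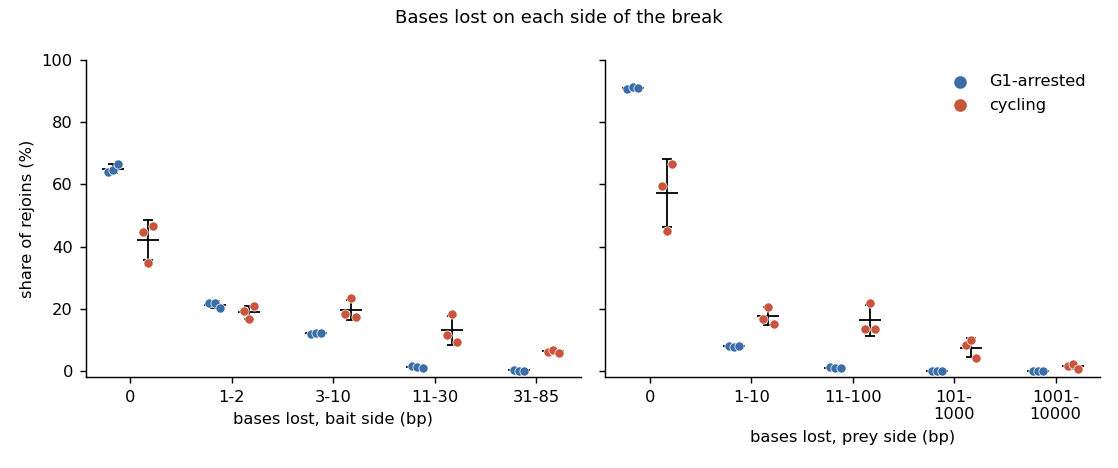
Share of rejoins (%) by bases lost from the bait side (left) and the prey side (right); points are libraries, bars the mean ± SD (n = 3), and the longest bait-side loss was 85 bp; 1 cycling read with a prey-side loss beyond 10 kb is not drawn. All arrested libraries fall near 0 from 11 bp on, and every cycling library lies above them there.

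Losses of 11 to 100 bp used microhomology more often in cycling than in arrested cells. A shared overlap itself counts as lost, so the conditions are compared within a size class. Among rejoins that lost 11 to 100 bp, microhomology of 2 bp or more was used in 47.2%, 49.7% and 40.7% in cycling and in 3.57%, 8.26% and 3.70% in arrested cells. In arrested cells most rejoins of that size held inserted bases (72.4%, 64.7% and 75.8%), against 20.1%, 13.2% and 16.4% in cycling cells. Losses of the same size thus had unlike structures in the conditions. Above 100 bp microhomology was used in 58.3%, 67.5% and 57.7% of cycling rejoins, and the 14, 8 and 8 arrested reads were too few to place.

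Most overlaps were short in both conditions. Among all junctions with any overlap the mean length was 2.16, 1.61 and 1.77 bp in arrested and 2.19, 2.11 and 2.04 bp in cycling cells, which overlapped (exact permutation p = 0.3, adjusted p = 0.3), although it was higher in cycling cells in all 3 same-numbered pairs (replicate block, exact p = 0.25, the smallest possible). The order turned over distinct junctions (2.89 ± 0.864 against 2.41 ± 0.0883 bp). Within rejoins alone, where most overlaps lie, the means were 1.42, 1.49 and 1.41 bp against 2.11, 2.07 and 1.95 bp, with no overlap. An overlap of 1 bp was 57.9%, 52.5% and 58.2% of overlapping junctions in arrested and 28.5%, 29.6% and 34.2% in cycling cells. Overlaps of 3 bp were 3.11%, 2.22% and 2.25% against 19.2%, 20.0% and 15.0%. Overlaps of 5 bp or more stayed below 1.4% of all junctions in every library, at most 1.38% in cycling replicate 2. That share is low in arrested cells also because few of their junctions had any overlap. Among overlapping junctions, overlaps of 8 bp or more were 5.65%, 0.653% and 3.45% in arrested and 0.879%, 0.445% and 0.917% in cycling cells, which overlapped.

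Fewer junctions held most of the reads in the arrested libraries. Insertions of equal length between the same ends count as the same junction here, whatever their bases. How far the contrasts in this paragraph depend on that was not tested. The 10 most frequent junctions held 71.7%, 73.2% and 71.9% of reads in arrested and 49.1%, 44.7% and 56.1% in cycling cells. The most frequent 3 junctions reached 50% of the reads in each arrested library, and 11, 16 and 6 were needed in cycling cells. Distinct junctions numbered 787, 1114 and 1234 in arrested and 2240, 1810 and 1701 in cycling cells, a log2 difference of 0.89 per 100000 raw reads with no overlap.

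Recurrent junctions, those with a mean share of at least 0.1% over the 6 libraries, numbered 72. Of these, 31 were higher in every cycling library than in any arrested one, 31 were lower, and 10 overlapped. These counts are themselves the background over all junctions compared (43.1% in each direction). A junction whose mean passed 0.1% in 1 condition alone had to differ, and 26 did so only in cycling and 12 only in arrested cells. The former include 16 of the 17 microhomology junctions, 6 of the 7 with a 1 bp overlap and all 16 that lost 11 bp or more, so their direction follows from the choice and is no result. Of the 34 junctions past 0.1% in both conditions, 6 were higher in cycling cells, 21 were higher in arrested cells and 7 overlapped. These 34 comprise 26 insertions (1 higher in cycling, 21 in arrested cells), 6 direct joins (3 higher in cycling cells, 3 overlapping), and 1 each with microhomology and a 1 bp overlap, both higher in cycling cells.

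The most frequent junction, taken by its ends and inserted length, was shared. Its inserted base was an A more often in cycling cells, as given above. The 1 bp insertion between intact ends held 27.2%, 31.3% and 25.9% of reads in arrested and 25.9%, 25.9% and 30.0% in cycling cells, and the groups overlapped. The 1 bp bait-side loss joined directly was the other frequent product that overlapped, at 4.83%, 5.34% and 3.35% against 3.18%, 2.85% and 4.46%. The products that fell most were the longer insertions between intact ends. The 2 bp insertion fell from 16.2%, 14.6% and 17.9% in arrested cells to 6.80%, 1.16% and 4.30% in cycling cells. The 3 bp insertion was 9.16%, 7.94% and 10.4% against 2.93%, 0.339% and 1.68%, and the 4 bp insertion 4.00%, 3.38% and 4.58% against 1.29%, 0.128% and 0.675%. With 1 bait base lost, the 2 bp insertion averaged 2.49% ± 0.129 against 0.863% ± 0.418 and the 3 bp insertion 2.32% ± 0.0313 against 0.539% ± 0.402 (SD, n = 3 each).

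The recurrent products with the largest rise in share were deletions, and they were chosen for that rise. The direct join after loss of 2 bait bases was 2.41%, 3.19% and 1.72% in arrested and 3.32%, 4.50% and 7.38% in cycling cells. The join at GA, which loses 9 bp in all, was 0.0252%, 0.0471% and 0.0138% in arrested and 1.97%, 2.98% and 0.933% in cycling cells. The join at GAG, which loses 27 bp, was 0.0252%, 0.00363% and 0% in arrested cells and 0.642%, 1.30% and 0.644% in cycling cells; arrested replicate 3 held no such read, and a count of 0 there allows a share of up to 0.0104%. The direct join had the largest rise in percentage points among recurrent junctions (2.63), while the GA and GAG joins were near 0 in arrested cells. The join at TA rose from 0.634% ± 0.177 to 1.82% ± 0.415, and the direct join after loss of 1 prey base was at 0.616% ± 0.187 against 1.58% ± 0.587 (SD, n = 3 each).

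**Figure D5:**
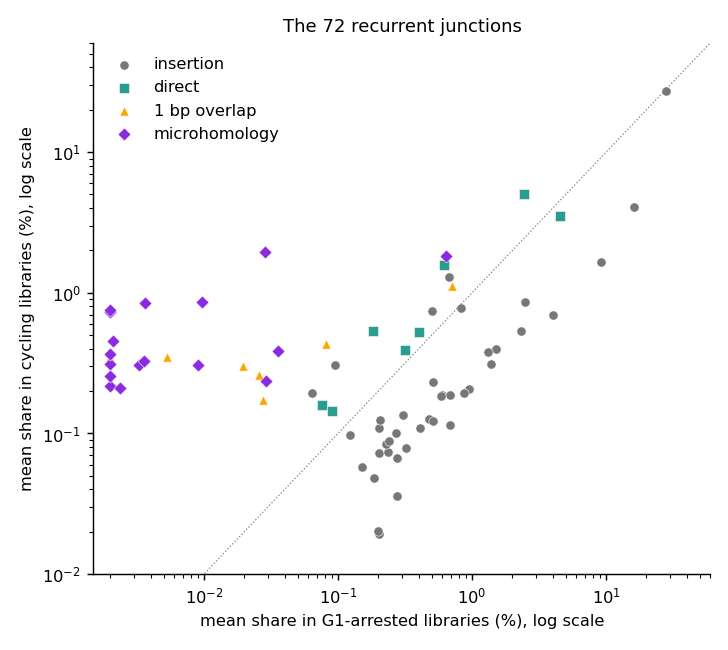
Mean share of reads (%, log scales) of each of the 72 recurrent junctions in the 3 arrested libraries (horizontal) and the 3 cycling libraries (vertical), marked by structure; the dotted line marks equal shares, and 7 junctions with an arrested mean under 0.002% are drawn at that value. Most junctions with microhomology or a 1 bp overlap lie left of 0.1% on the horizontal axis, so their place above the line follows from how junctions were chosen; most insertions lie below the line.

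Some broken ends joined elsewhere. Inverted joins within 100 kb, in which the prey is read in the opposite orientation, numbered 3, 3 and 4 in arrested and 74, 56 and 48 in cycling libraries. They lay near the break, 39 of the cycling ones within 100 bp and 80 beyond that but within 1 kb. In cycling cells 154 of the 178 had prey from before the break, on the bait's own side, against 1 of 10 in arrested cells. Microhomology of 2 bp or more was present in 121 of the 178 and in 9 of the 10. Joins to chromosome 15 beyond 100 kb were 7, 26 and 24 reads against 17, 11 and 22. Per 100000 raw reads they overlapped, although as a share of junction reads they did not (0.0738% ± 0.0263 against 0.119% ± 0.0172). Over distinct junctions the order turned (1.72% ± 0.747 against 0.887% ± 0.360), as it did against the other arrested set (0.180% ± 0.0178).

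Joins to other chromosomes showed no stable difference in number. They were 0.825%, 1.02% and 1.02% of junction reads in arrested and 1.38%, 1.40% and 1.26% in cycling cells, with no overlap. Over distinct junctions the order turned (21.8% ± 4.52 against 9.72% ± 2.02). Per 100000 raw reads there were 42.2, 90.1 and 94.6 in arrested and 62.4, 49.2 and 66.0 in cycling cells, which overlapped. The direction therefore rests on what the junctions are counted against.

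Their structure did differ. Outside the Igk locus the bait end was intact in 50.0%, 66.5% and 58.5% of interchromosomal joins from arrested cells and in 14.4%, 17.0% and 22.7% from cycling cells. The median bait-side loss in them was 0.5, 0 and 0 bp against 25, 17 and 16 bp. Microhomology of 2 bp or more was found in 23.4%, 16.9% and 16.2% against 35.1%, 27.5% and 31.0%. None of these values overlapped between the groups. The microhomology share includes overlaps of 8 bp or more. These were 12.9%, 1.65% and 6.54% of the same joins in arrested and 12.4%, 10.5% and 12.8% in cycling cells, which overlapped. Microhomology of these joins without the long overlaps was not compared.

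The Igk locus, the kappa light-chain genes (chr6:67555636-70726754, plus strand), was the most frequent partner outside chromosome 15 in arrested cells. In pre-B development the RAG recombinase cuts this locus beside its V and J segments, and v-Abl cells arrested with an Abl inhibitor are known to begin that cutting. Igk junctions numbered 7, 38 and 34 in arrested and 0, 0 and 2 in cycling libraries. As a share of interchromosomal junctions this was 5.34% (95% Wilson interval 2.61 to 10.6%), 13.6% (10.0 to 18.1%) and 11.6% (8.39 to 15.7%) in arrested cells. In cycling replicate 3 it was 0.976% (0.268 to 3.49%), and the counts of 0 in cycling replicates 1 and 2 allow up to 1.55% and 1.96%. All arrested libraries lay above all cycling ones, with arrested replicate 1 the lowest of its group.

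Most Igk joins sat at the J segments, the short joining pieces that RAG connects to V segments. Of 77 distinct Igk junctions in arrested cells 71 lay within 100 bp of the lower-coordinate edge of a J segment, where the RAG signal sequence adjoins, and 52 of them within 5 bp. Igkj2 (chr6:70722916-70722954) held 22 of them, Igkj5 (chr6:70723886-70723923) 21, Igkj1 (chr6:70722562-70722599) 17 and Igkj4 (chr6:70723548-70723585) 11, and none lay at Igkj3. Of the 71, 60 had the prey on the minus strand and 11 on the plus strand. By library, Igkj1 held 0, 13 and 4 arrested junctions, and its 11 on the minus strand all came from replicate 2. Insertions were present in 46 of the 77, and 4 had microhomology of 2 bp or more. One of the 2 cycling junctions lay at Igkj1.

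No other 1 Mb bin came close. The Igk bin of chromosome 6, from 70 to 71 Mb, held 7, 35 and 32 distinct junctions in arrested and 0, 0 and 1 in cycling libraries, and each other bin held at most 6 over all 6 libraries. The bins next in number in arrested cells were on chromosome 4 at 100 Mb (4 junctions, 1 in Cachd1), on chromosome 1 at 12 Mb (3, with 1 in Sulf1) and 105 Mb (3, with 2 in Pign), and on chromosome 10 at 65 Mb (3, none in a gene). In cycling cells the leading bins were on chromosome 16 at 93 Mb (5, with 1 in Cbr3), chromosome 9 at 89 Mb (5, none in a gene) and 65 Mb (4, with 4 in Gm51712), chromosome 5 at 129 Mb (4, with 3 in Zfp11) and chromosome 10 at 68 Mb (3, with 2 in Arid5b). Gene counts here are over both conditions, and counts this small do not place one of these bins above another.

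Against the other set of arrested wild-type libraries of the same clone, brought to 396387 raw reads, some arrested values lay close and others did not. Insertions there were 91.3% ± 0.353, microhomology 0.860% ± 0.0517 and net losses over 100 bp 0.0508% ± 0.0260 (SD, n = 3). Igk joins were 0.411%, 0.229% and 0.180% of junction reads there, above the 0.0441%, 0.138% and 0.118% of the arrested set compared here. Interchromosomal joins were 1.73% ± 0.573 there, above the cycling mean of 1.35% ± 0.0784, and with that set the order of the interchromosomal share turned.

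The change from arrested to cycling cells was set against that in Lig4-/- cells of clone A1, which also carry Emu-Bcl2, lack ligase IV and were nucleofected and arrested in the same ways. Their arrested libraries lie on the runs of the wild-type arrested ones, and their cycling libraries on those of the wild-type cycling ones. The Lig4-/- arrested libraries hold only 74, 100 and 85 junction reads, and replicate 2 stands apart, with 56.9% of its rejoins at no net length change. Direct joins rose by 6.92 percentage points from arrested to cycling wild-type cells and fell by 4.85 in Lig4-/- cells. The difference was 11.8 (exact permutation within genotypes, two-sided, p = 0.005, the smallest it can give, adjusted p over 6 measures = 0.015). Labels were permuted within each genotype, so a small p speaks only against no change in either genotype. It does not test whether the changes are unequal. The interchromosomal share rose by 0.396 points in wild-type cells and fell by 44.3 in Lig4-/- cells, a difference of 44.7 (exact permutation p = 0.005, adjusted p = 0.015). The Lig4-/- fall is in share only. At 310675 raw reads each, interchromosomal reads rose from 30, 46 and 46 in arrested to 274, 304 and 295 in cycling Lig4-/- cells. Rejoins rose from 42, 51 and 36 to 9537, 12513 and 10288 reads. Over distinct junctions both differences lost their call, at 5.36 (exact permutation p = 0.095) and 31.2 (exact permutation p = 0.13). With a replicate block their exact p was 0.0312 each, and the adjusted p of 0.0938 no longer passed 0.05.

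The other changes had the same direction in both genotypes over all reads. In Lig4-/- cells they were -13.5 points for insertions, 12.3 for microhomology, 16.7 for losses over 100 bp and -3.66 for Igk joins. Swapping the labels of 1 genotype then gives a larger difference than the observed one. A large p therefore does not show that the changes were alike. The difference was -21.3 points for insertions (exact permutation p = 0.415, adjusted p = 0.83), 7.66 for microhomology (exact permutation p = 0.685, adjusted p = 0.852), -6.36 for losses over 100 bp (exact permutation p = 0.71, adjusted p = 0.852) and 3.57 for Igk joins (exact permutation p = 1, adjusted p = 1). Without Lig4-/- arrested replicate 2 the insertion difference was -37.3 (exact permutation p = 0.005). Over distinct junctions the differences for insertions and microhomology were -42.8 and 34.7 (exact permutation p = 0.02 each). Among the sequences above, the GA and GAG joins were at 4.58% ± 0.416 and 2.83% ± 0.184 in cycling Lig4-/- cells, and the 1 bp insertion between intact ends was at 0.0217% ± 0.0210 (SD, n = 3 each).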

How the data were processed

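Each library is a linear-amplification junction library read with a primer beside the break. Per the labels' protocols, the enzyme blocking step was left out and reads came from an Illumina MiSeq. Bowtie2 and mm10 are named in the submitters' processing notes; version and parameters are not given in the sources used here. The authors deposited 1 list per library, with positions and read coordinates of bait and prey per junction read, and brought both groups to 310675 raw reads, per the labels; values in these lists are positions, not counts or scores of a feature. All else was computed here: overlap (read end of bait minus read start of prey, plus 1), bases lost from each side of the most frequent ends of the other arrested set, net length change, and shares of junction reads or of distinct junctions (prey position and strand, bait end and overlap all equal). For a distinct junction the number of inserted bases counts, not which bases they are. Log2 measures used a pseudocount of 0.5 counts.

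Conditions were compared over libraries with two-sided exact permutation tests, adjusted by Benjamini-Hochberg, in Python 3.11.15 with numpy 2.4.6, and tested on simulated data. The members, measures and lists were chosen with earlier results of these data known. Named junctions are the 5 with the highest mean share in each condition and the 5 with the largest difference each way among those that did not overlap; named sites are the 5 bins of 1 Mb with the most distinct junctions per condition, in at least 2 libraries, and always Igk. Gene positions are those of the RefSeq annotation of mm10.

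All 6 pairs of replicates of a group differed beyond sampling noise in a chi-square test and shared no read name. The labels do not say what equal replicate numbers share. Over the 72 recurrent junctions the deviations of same-numbered libraries from their group means correlated at 0.13, 0.51 and 0.16, all above 0.1, so the numbers were taken to pair the libraries, on the data alone; arrested replicate 3 correlated best with cycling replicate 1, not 3. Alternatives were each distinct junction once, other windows and overlap minimums, prey on chromosome 15 only, the other arrested set, a replicate block and leaving out each library. The remaining samples of the series were not analysed here.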

Additional observations from a re-analysis of the deposited data

Results flagged for a closer look

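The change from arrested to cycling cells in wild-type libraries differed from that in Lig4-/- libraries for the share of direct joins, by 11.8 percentage points (exact permutation within genotypes, adjusted p = 0.015). The share of direct joins was higher in all 3 cycling wild-type libraries than in any arrested one. The change in the interchromosomal share differed between the genotypes by 44.7 points (exact permutation within genotypes, adjusted p = 0.015). For both shares this test asks whether either genotype changed, not whether the changes were unequal. The Lig4-/- arrested libraries, with 40.5%, 46.0% and 54.1% of junction reads on other chromosomes against 2.73%, 2.33% and 2.72% in Lig4-/- cycling libraries, account for nearly all of its size in arithmetic, since the wild-type change was 0.396 points. In number, these Lig4-/- reads rose from 30, 46 and 46 in arrested to 274, 304 and 295 in cycling libraries. With a replicate block neither difference passed 0.05 after adjustment (exact, adjusted p = 0.0938 each).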

How the results depend on the processing

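Counting each distinct junction once turned the log2 difference (cycling minus arrested) in junctions per 100000 raw reads to 0.89, the mean overlap length to -0.479 bp, losses of 1 to 10 bp to -25.7 percentage points, joins on chromosome 15 beyond 100 kb to -0.836, interchromosomal joins to -12.1 and the wild-type minus Lig4-/- difference in losses over 100 bp to 0.234. It made the wild-type minus Lig4-/- differences for insertions and microhomology -42.8 and 34.7 (past 0.05, unadjusted) and took those for direct and interchromosomal joins to 5.36 and 31.2 (no longer past it). Against the other arrested set the mean overlap length was -0.224 bp, distant chromosome 15 joins -0.0614 and interchromosomal joins -0.384 points. With both arrested sets together, distant chromosome 15 joins were -0.00807 points, and 15 measures passed an unadjusted 0.05 (exact permutation p = 0.0238 or 0.0476, where 0.0238 is the smallest possible). Their differences were -0.92 and 0.66 in log2 for all and distinct junctions, -36.5 for insertions, 8.32 for direct joins, 20.1 for microhomology, -5.07 for 1 bp gains, -33.1 for gains of 2 bp or more, 9.81, 19.1 and 10.3 for losses of 1 to 10, 11 to 100 and over 100 bp, 0.335 and 0.524 in log10 for bait and prey sides, 0.429 for inverted joins, -0.183 for Igk and -23.0 for the 10 most frequent junctions. The sets lie on separate runs and raw read targets. At a mean share of at least 0.5%, 6 recurrent junctions were higher in cycling and 10 in arrested cells.

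The replicate block (sign-flips within pairs, smallest p 0.25 for 3 pairs) left all differences as they were, for example -34.8 for insertions (p = 0.25, exact), and changed no call among the 17 measures. For direct and interchromosomal joins against Lig4-/- it gave p = 0.0312 (exact), which after adjustment over the 6 measures was 0.0938 and ended both calls. Leaving out 1 wild-type library at a time kept the direction of all 17 measures and of gains of 2 bp or more; the difference ranged from -38.4 to -29.9 for insertions, 16.0 to 23.0 for microhomology, 8.88 to 12.2 for losses over 100 bp and -0.124 to -0.0767 for Igk. It moved by over 1.5 times for direct joins (4.53) and losses of 1 to 10 bp (4.83) without cycling replicate 3, for 1 bp gains (-2.68) without arrested replicate 2, and for mean overlap length without arrested replicate 1 (0.424 bp) or 2 (0.151 bp). Recurrent junctions higher in cycling ranged from 25 to 36 and in arrested cells from 29 to 34. Over the libraries of both genotypes the differences from Lig4-/- ranged from -37.3 to -12.2 for insertions, 9.38 to 13.8 for direct joins, 1.06 to 18.7 for microhomology, 41.1 to 47.9 for interchromosomal joins, -13.6 to 2.11 for losses over 100 bp and -0.0982 to 5.40 for Igk. Without Lig4-/- arrested replicate 2 the values were -37.3, 18.7, 2.11 and -0.0982 for insertions, microhomology, losses over 100 bp and Igk; without replicate 3 they were -12.2, 1.06, -13.6 and 5.40. Without replicate 1 microhomology was 3.18 and Igk 5.40, and without wild-type cycling replicate 2 microhomology was 3.68. Leaving libraries out of the Lig4-/- comparison, gains of 2 bp or more, and insertions without rejoins of no net change that have unaligned bases (-34.9) were chosen after seeing the data. The cause of these shifts was not tested. Depth limits rare classes, since a count of 0 allows up to 0.0275% in the smallest library.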
